A study of Mus musculus with 4 samples.

Results

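Desmosome genes were followed in whole embryonic mouse skin in which beta-catenin was made stable in the epithelium. The genes were 10: the desmosomal cadherins Dsg2, Dsg3, Dsc1, Dsc2 and Dsc3, the armadillo proteins Jup, Pkp1 and Pkp3, the plakin Dsp, and Perp. They were chosen by name, and every probe set whose platform gene symbol is one of these names was taken. That gave 20 of 45037 probe sets, for 9 genes out of 18193 named ones; no probe set of the platform table used here carries the symbol Dsg3, which was not analysed. Both groups were embryos at E14.5. The mutants were KRT14-Cre Ctnnb1(Ex3)fl/+ and the controls were littermates whose genotype the labels do not give. KRT14-Cre acts in cells that use the keratin 14 promoter, the keratinocytes, while the samples also hold dermis. In the mutants Cre deletes exon 3 of 1 Ctnnb1 allele, which encodes the signals for breakdown of the protein, and the other allele is intact. RNA of whole skin, epidermis with dermis, from 2 control and 2 mutant embryos was read on 1 Affymetrix array each.

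Desmosomes are the junctions that tie the keratin filaments of neighbouring epithelial cells together. Desmogleins and desmocollins, the desmosomal cadherins, bridge the gap between the cells. Plakoglobin (Jup) and the plakophilins bind the tails of the cadherins inside the cell, and desmoplakin (Dsp) links them to keratin. In skin the composition changes with the layer: Dsc3 is typical of basal cells, while Dsc1 and Pkp1 are most abundant above them. Plakoglobin is a close relative of beta-catenin and also sits in adherens junctions.

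Mean signals per array lay between 219 and 227 on the linear scale of the deposited values. The spiked-in poly-A RNA was higher in the controls by 1.16 on the log2 scale over 12 probe sets. Its means were 8.17 and 7.64 in control replicates 1 and 2, and 6.76 and 6.73 in mutant replicates 1 and 2. The controls thus differed from each other more than the mutants did. The deposited scale is that of each array's own signal, and scaling by these spikes raised the median change of all tested genes from -0.02 to 1.09. Cartilage markers were high in mutant replicate 1 alone, with a summed signal over 8 genes of 9716 against 395 in mutant replicate 2 and 167 to 202 in the controls. Muscle of the heart, another tissue rich in desmosomes, was dim throughout: the 5 cardiac markers summed to 39.3 to 51.5 on every array, and 0 of the 5 reached the filter for testing. With 2 arrays per group, a two-sided permutation test cannot give a p under 0.333, so tests rest on the limma model fitted across all 22519 tested probe sets. In bulk skin, fewer cells of a type and less RNA per cell cannot be told apart.

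Desmosome genes read lower in mutant skin on the deposited scale, though 7 of 9 read higher on the scale of the poly-A spikes, and 3 of the 9 measured genes fell past the threshold of limma adjusted p 0.05: Dsc1, Pkp1 and Perp. Across all tested genes 3.78% fell by the same rule. With each gene represented by its brightest probe set, the log2 fold changes ran from -1.55 for Dsc1 to -0.34 for Dsp, with a median of -0.81 over the 9 genes against -0.02 over all 11549 tested genes. On the scale of the poly-A spikes the median of the 9 genes was 0.28, and all 9 still lay below the median of all genes there. None of Dsc1, Pkp1 and Perp was called on that scale (-0.42, 0.10 and 0.09, limma adjusted p = 0.252, 0.781 and 0.794). Counted as probe sets, 18 of the 20 passed the filter on dim signals, 4 fell (2.93% of all tested probe sets did), 0 rose and 14 did not pass. An unadjusted limma p under 0.05 was reached by 16 of the 18. In 17 of the 18, both mutant arrays read below both controls, against 27.7% of all tested probe sets. Taken as genes, all 9 were apart in this way, against 30.4% of all tested genes. A log2 fold change under 0 was found for all 18, against 51.1% of all tested probe sets. Probe sets of a gene share their transcript and are not independent.

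**Figure D1:**
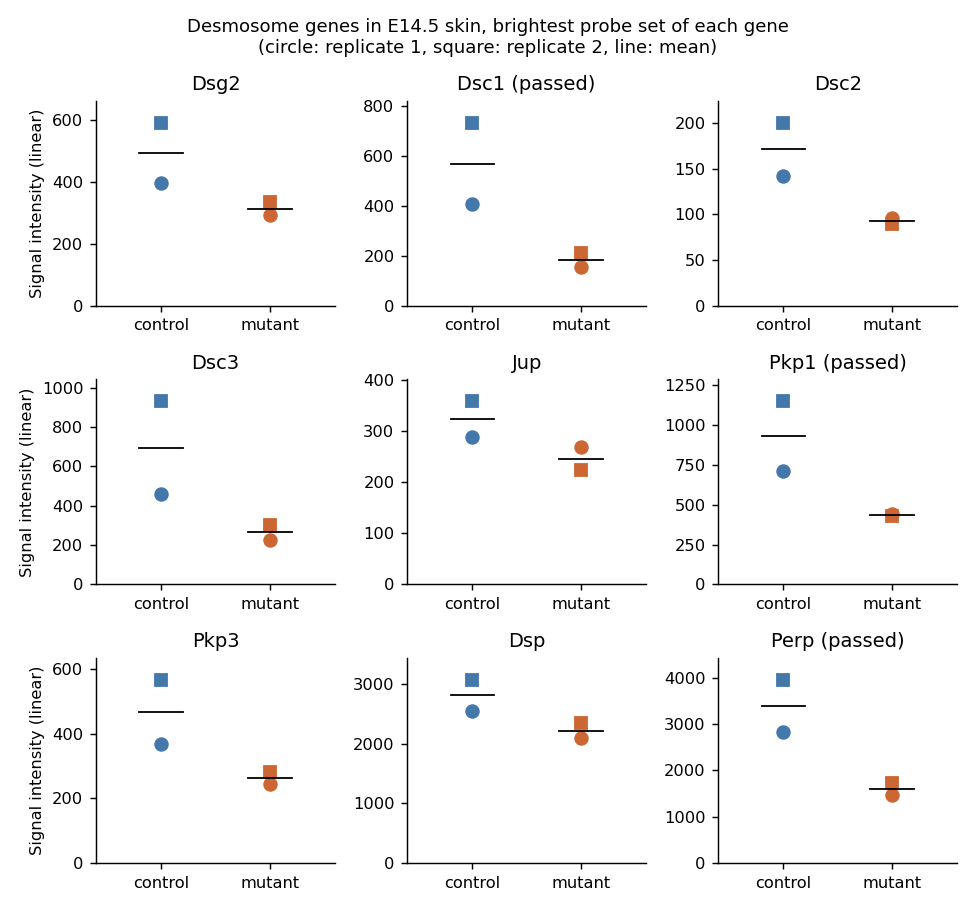
Linear signal intensity (vertical axes, from 0, a separate scale for each gene) of the brightest probe set of 9 desmosome genes in control (blue) and mutant (orange) E14.5 skin; circles are replicate 1, squares replicate 2 and lines the means of 2 arrays. On this deposited scale, which the poly-A spikes would turn for 7 genes, both mutant arrays lie below both controls for each of the 9 genes, and control replicate 2 lies above control replicate 1 for each.

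The controls differed from each other on these genes. Control replicate 2 read above control replicate 1 in 17 of the 18 tested probe sets, by a median of 1.32-fold and at most 2.03-fold, while 50.9% of all tested genes had control replicate 2 higher. Epithelial markers were also higher there: over 12 tested markers the median difference between control replicates 2 and 1 was 0.52 on the log2 scale, beside 0.57 for the 9 desmosome genes and 0.01 for all genes. With control replicate 2 left out, the 9 genes had a median change of -0.57 and 3 probe sets were called lower (1.84% of all). Without control replicate 1 it was -1.09 and 11 probe sets were called lower (3.77% of all). Leaving out mutant replicate 1 left 2 probe sets called lower (1.94% of all), and leaving out mutant replicate 2 left 5 (1.8% of all). The 9 genes kept log2 fold changes under 0 in each of these 4 fits.

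Among the cadherins Dsc1, the desmocollin of the upper layers, changed most. The brightest Dsc1 probe set (1456203_at) read 406 and 733 in the controls and 156 and 212 in the mutants. Both mutants lay well under the lower control. The means were 569 ± 231 and 184 ± 39.3 (SD, n = 2 per group), so the mutant mean was 32.3% of the control mean. Its log2 fold change was -1.55 (SE 0.28, limma adjusted p = 0.0251, 95% interval -2.21 to -0.88). The second Dsc1 probe set (1421460_at) was dimmer, at 101 and 153 in controls and 20.5 and 47.5 in mutants, and it gave -1.75 (SE 0.35, limma adjusted p = 0.0350). That call ended without control replicate 2 (adjusted p = 0.0960) and when mutant replicate 1 was left out (adjusted p = 0.0539). The groups did not overlap in either probe set. The call of the brighter probe set held whichever array was left out (adjusted p = 0.00175 to 0.0397). It ended when dim probe sets were tested too (adjusted p = 0.0624), as it did in a fit with no variance trend (adjusted p = 0.0570).

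Dsc3, the desmocollin of basal cells, had the next lowest log2 fold change of the 9 genes and did not pass. Its brightest probe set (1434534_at) read 459 and 930 in the controls and 225 and 304 in the mutants. The controls were 2.03-fold apart, the widest gap between controls among the 18 tested probe sets. The log2 fold change was -1.30 (SE 0.32, limma adjusted p = 0.0612, 95% interval -2.05 to -0.54). Leaving out control replicate 1 brought it past the threshold (adjusted p = 0.00218), as did leaving out mutant replicate 2 (adjusted p = 0.0400). A dimmer Dsc3 probe set (1427637_a_at) read 61.4 and 76.3 against 42.5 and 36.0, with a log2 fold change of -0.70 (limma adjusted p = 0.102).

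Dsc2, a desmocollin found in many epithelia, gave unequal readings from its probe sets. The brighter (1426911_at) read 142 and 200 in controls and 96.1 and 89.8 in mutants, a log2 fold change of -0.81 (SE 0.19, limma adjusted p = 0.0580). The other (1421156_a_at) read 97.0 and 91.6 in controls and 62.5 and 93.9 in mutants. It was the only tested member probe set whose groups overlapped, with a log2 fold change of -0.27 (95% interval -0.79 to 0.25, limma adjusted p = 0.516).

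Dsg2, a desmoglein of simple epithelia and of the lower epidermis, was read by 6 probe sets, of which 2 were too dim to be tested. The brightest (1439476_at) read 395 and 590 in controls and 291 and 333 in mutants, a log2 fold change of -0.62 (SE 0.20, limma adjusted p = 0.121). The other 3 tested probe sets had log2 fold changes of -0.79, -0.79 and -0.49, with limma adjusted p-values of 0.0554, 0.0910 and 0.185. All 4 had both mutants below both controls, and none of the 4 passed. The 2 dim probe sets averaged 20.9 and 15.8 in controls and 11.1 and 5.12 in mutants.

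In the reference annotation the mouse desmosomal cadherin genes form a single uninterrupted run of protein-coding genes, in the order Dsc3, Dsc2, Dsc1, Dsg1c, Dsg1a, Dsg1b, Dsg4, Dsg3 and Dsg2. Along this run the measured log2 fold changes were -1.30, -0.81 and -1.55 for the desmocollins, -0.77 for Dsg1a, -0.07 for Dsg1b and -0.62 for Dsg2. Of these 6 genes Dsc1 alone was called. Dsg1a and Dsg1b, desmogleins of the upper epidermis, are close copies of each other, so their probe sets may read both. Dsg1c and Dsg4 were not analysed here.

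**Figure D2:**
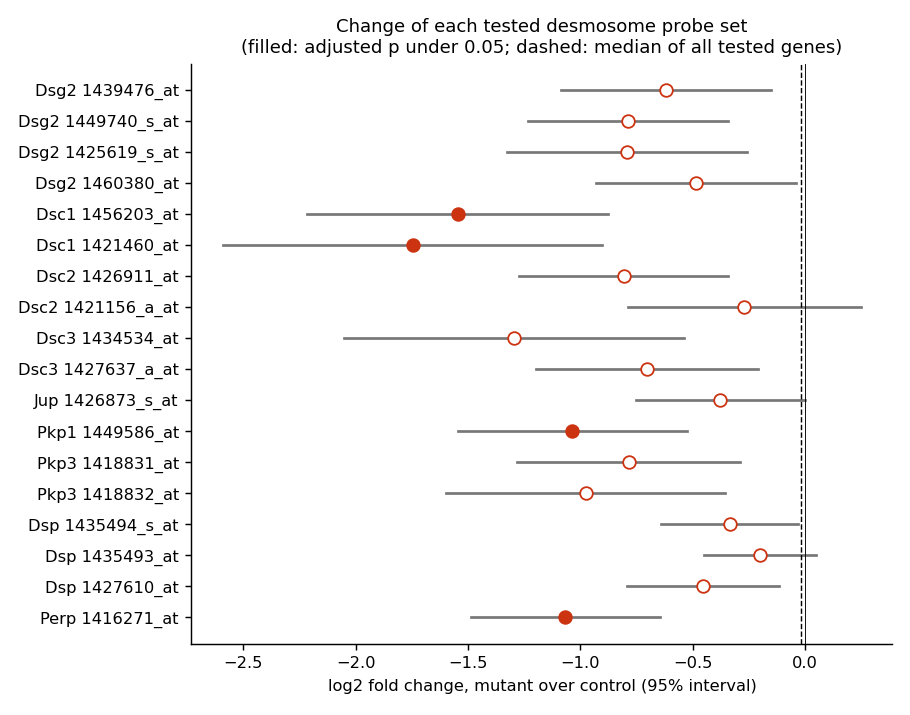
Log2 fold change of mutant over control (horizontal axis) with its 95% interval from limma for the 18 tested desmosome probe sets, labelled by gene and probe set; filled points passed adjusted p 0.05 and the dashed line is the median of all tested genes, -0.02. All 18 points lie below 0, from -1.75 for a Dsc1 probe set to -0.20 for a Dsp probe set, and the 4 filled points belong to Dsc1, Pkp1 and Perp; on the scale of the poly-A spikes, not plotted, 7 of the 9 genes lie above 0.

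Of the plakophilins Pkp1 fell and Pkp3 did not pass. Pkp1, which strengthens desmosomes in the upper layers and is lost in a human skin fragility syndrome, read 711 and 1149 in controls and 442 and 432 in mutants. The mutants were nearly alike and both below the lower control. The means of 930 ± 310 and 437 ± 7.16 (SD, n = 2 per group) gave a log2 fold change of -1.04 (SE 0.21, limma adjusted p = 0.0371, 95% interval -1.55 to -0.53). Leaving out either mutant ended its call (adjusted p = 0.0555 for replicate 1 and 0.0635 for replicate 2). So did testing dim probe sets too (adjusted p = 0.0844) and fitting no variance trend (adjusted p = 0.0793). Pkp3, the plakophilin present in all layers, read 368 and 566 in controls and 243 and 282 in mutants (1418831_at). Its log2 fold change was -0.79 (SE 0.21, limma adjusted p = 0.0773), and a dimmer probe set gave -0.98 (limma adjusted p = 0.0776). Within arrays, Pkp1 minus Pkp3 was lower in the mutants by -0.25 on the log2 scale, with groups that did not overlap; this difference was not tested.

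Jup and Dsp, the core of the plaque inside the cell, had the smallest differences of the 9 genes. Jup read 288 and 359 in controls and 268 and 225 in mutants, so that the mutant mean was 76.2% of the control mean (n = 2 per group). The higher mutant lay just under the lower control. The log2 fold change was -0.38 (SE 0.16, limma adjusted p = 0.216, 95% interval -0.75 to -0.0024). Dsp read 2556 and 3072 in controls and 2094 and 2347 in mutants with its brightest probe set (1435494_s_at), a log2 fold change of -0.34 (SE 0.13, limma adjusted p = 0.182). Its other probe sets gave -0.20 (95% interval -0.45 to 0.05) and -0.45 (limma adjusted p = 0.307 and 0.116). The 95% interval of the brightest Dsp probe set ran from -0.64 to -0.03. The signal of Ctnnb1, the relative of Jup, had a log2 fold change of 0.04 (limma adjusted p = 0.874). Without control replicate 1, the left-out array that gave the lowest changes, Jup had a log2 fold change of -0.53. The Dsp probe sets had -0.47 for the brightest, -0.26 (1435493_at) and -0.61 (1427610_at) in that fit. With the array number fitted as a replicate block, Dsp was called lower (limma adjusted p = 0.0285) and Jup was not (limma adjusted p = 0.203). On the scale of the poly-A spikes these plaque genes were called higher, Dsp by 0.82 and Jup by 0.74 on the log2 scale. There 90.1% of all tested probe sets were called higher. Both genes lay below the median of all tested genes on that scale, 1.09.

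The promoters of Jup and Dsp, 2 of the 10 members, were found in the RefSeq table of the reference (GRCm38.p6). They are shown because no other member has an entry in that table. Each covers 250 bases before to 50 bases after the gene start, read 5′ to 3′ along the gene. Jup lies at chr11:100397741-100398040 on the minus strand and Dsp at chr13:38151044-38151343 on the plus strand. Capitals mark matches on either strand to the AP-2 motif GCCNNNGGC or the KLF motif CCNCNCCC.
Jup: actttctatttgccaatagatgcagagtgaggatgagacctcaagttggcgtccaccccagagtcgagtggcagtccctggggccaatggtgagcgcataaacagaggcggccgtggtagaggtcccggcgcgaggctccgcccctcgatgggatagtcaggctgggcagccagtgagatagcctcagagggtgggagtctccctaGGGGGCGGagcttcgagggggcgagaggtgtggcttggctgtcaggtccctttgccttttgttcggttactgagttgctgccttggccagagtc
Dsp: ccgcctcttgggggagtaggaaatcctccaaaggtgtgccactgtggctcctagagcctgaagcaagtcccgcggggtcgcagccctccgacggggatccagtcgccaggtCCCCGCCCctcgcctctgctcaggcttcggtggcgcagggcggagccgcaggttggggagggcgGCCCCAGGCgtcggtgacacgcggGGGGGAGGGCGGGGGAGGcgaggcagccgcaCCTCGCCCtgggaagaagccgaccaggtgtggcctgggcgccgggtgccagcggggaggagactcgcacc

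The Jup window held 1 KLF match and no AP-2 match. The Dsp window held 1 AP-2 match, which is bases 176 to 184 of the window, and 5 KLF matches, of which 3 overlap in a chain. Of 32851 promoter windows of the same length, 16.6% hold the AP-2 motif and 49.5% the KLF motif. No match was found in either window to the TCF/LEF motif, which 16.9% of windows hold. It was searched on both strands in the form CTTTGAA, in the form CTTTGAT, in the form CTTTGTA and also in the form CTTTGTT. Nor was there a match to the GRHL motif AACNNGTT, which 4.2% hold. The p63 motif, searched by its conserved letters on both strands and present in 70.2% of windows, had 3 matches in Dsp, of which 2 overlap, and none in Jup. GC content was 60.7% in the Jup window and 73% in the Dsp window. These matches are descriptions of the letters only.

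Perp, a tetraspan membrane protein of desmosomes that p63 controls in mouse epidermis, fell. It read 2823 and 3958 in controls and 1468 and 1726 in mutants. The groups were well apart, with means of 3391 ± 803 and 1597 ± 182 (SD, n = 2 per group), so mutant skin held 47.1% of the control signal. The log2 fold change was -1.07 (SE 0.18, limma adjusted p = 0.0182, 95% interval -1.49 to -0.65). The call held without any 1 array (adjusted p = 0.00304 to 0.0416), but ended narrowly with dim probe sets tested too (adjusted p = 0.0506) or no variance trend fitted (adjusted p = 0.0505). Trp63, which encodes p63, had a log2 fold change of -0.69 (limma adjusted p = 0.1001).

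The estimated size of change varied among the desmosome genes. Ratios within an array do not depend on its scaling. Relative to Dsp on the same array, Dsc1 differed in the mutants by -1.21, Perp by -0.73 and Pkp1 by -0.70 on the log2 scale. Jup differed from Dsp by -0.04. Dsp had the smallest change of the measured desmosome genes (-0.34), so every other member has to come out lower against it. The signs of these ratios were thus fixed by the choice of Dsp. Their sizes repeat the gaps between the log2 fold changes given above and add no separate evidence. The groups did not overlap for Dsc1, Perp and Pkp1 and overlapped for Jup. Dsc3, which was not called, had a log2 fold change of -1.30, lower than those of Perp and Pkp1. Relative to Dsc3, Dsc1 differed by -0.25, also without overlap. How often ratios of other genes lack overlap was not counted for any ratio given here. Of single tested probe sets, 54.3% had groups that did not overlap. These differences are descriptions over 2 arrays per group and were not tested.

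Desmosome genes are used by epithelial cells, so they were set beside markers of the epithelium. Of 12 tested pan-epithelial markers 3 fell and 2 rose while 7 missed the threshold; their median log2 fold change was -0.40. The log2 fold changes of those named were -1.54 for Cdh1, the epithelial cadherin, -1.28 and -1.27 for the splicing factors Esrp1 and Esrp2, and 2.96 for St14, a membrane protease. The summed signal of the 13 measured markers was 3979 to 5738 in controls and 3137 to 3778 in mutants. Of 10 basal keratinocyte markers 3 fell and 7 missed the threshold; their median was -0.68. The 3 were the keratin Krt15, the hemidesmosome collagen Col17a1 and the adhesion molecule Bcam, with log2 fold changes of -2.67, -1.62 and -0.72 (limma adjusted p = 0.0299, 0.00730 and 0.0401). The call of Krt15 ended without control replicate 2 (adjusted p = 0.0761), and Bcam passed only without control replicate 1 among the fits that left out an array. The summed signal of the 10 was 7911 to 11269 in controls and 4403 to 5933 in mutants. With dim probe sets tested too, or with no variance trend fitted, 3 epithelial markers (2 lower, 1 higher) and 1 basal marker were called. All these counts stand beside 3.78% of all genes called lower and 4.96% called higher.

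Relative to the mean of the 12 epithelial markers on each array, Dsc1 was lower in mutants by 1.48 on the log2 scale (limma adjusted p = 0.00336). Dsc3 was lower by 1.23 (limma adjusted p = 0.0287). The other member genes did not pass there, with Perp at -0.998 (adjusted p = 0.347) and Pkp1 at -0.97 (adjusted p = 0.189). The same amount per array is taken from every probe set, so all changes move alike and all gain the same spread between replicates. Krt1 had a limma adjusted p of 8.7e-46 there and 0.000149 in the main fit. Which members pass in this fit is therefore not read as a difference among them. The fits against a median marker below share this limit. In that fit 3 member probe sets were called lower, against 0.995% of all probe sets. The mean of the 12 markers hardly differed between the groups (-0.07), with markers on both sides: 3 fell and 2 rose. The median epithelial marker, a reference chosen after the data were seen, was lower in mutants by 0.43, and against it Dsc1 had a log2 fold change of -1.12 and did not pass (limma adjusted p = 0.155). Against the median basal keratinocyte marker, also chosen afterwards, Dsc1 had -0.90 (limma adjusted p = 0.109). The median of the 9 genes was then -0.16, and Dsp, Jup and Dsg2 lay slightly above 0. How much of the lower member signals goes with the amount of epithelium was not tested.

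**Figure D3:**
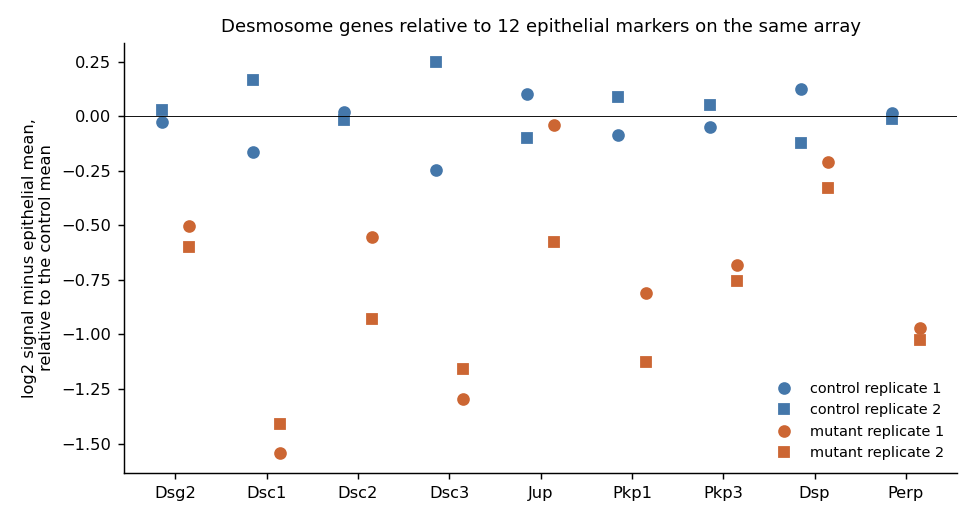
Log2 signal of each desmosome gene minus the mean log2 signal of 12 epithelial markers on the same array (vertical axis), shown relative to the mean of the 2 controls, for 9 genes (horizontal axis); blue is control, orange mutant, circles replicate 1 and squares replicate 2. Dsc1 and Dsc3 lie lowest in the mutants, by 1.48 and 1.23 on average, and Jup is the only gene whose groups overlap.

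Other genes of desmosomes and of the cornified envelope were read as relatives of the members. Of 10 relatives, 8 have a probe set and 6 were bright enough to be tested: 2 fell, 0 rose and 4 missed the threshold, and the median log2 fold change was -0.45. Both that fell were plakins, relatives of Dsp that also form part of the cornified envelope. Ppl, periplakin, read 327 and 586 in controls and 135 and 159 in mutants, a log2 fold change of -1.53 (limma adjusted p = 0.0206). Its call held without any 1 array (adjusted p = 0.000897 to 0.0310) and ended without the filter (adjusted p = 0.0539). Evpl, envoplakin, read 206 and 318 in controls and 99.0 and 128 in mutants, a log2 fold change of -1.14 (limma adjusted p = 0.0354). Leaving out control replicate 2 ended its call (adjusted p = 0.0727), and so did leaving out mutant replicate 1 (adjusted p = 0.0894), testing dim probe sets too (adjusted p = 0.0789) and fitting no variance trend (adjusted p = 0.0668). Pkp4, which is not confined to desmosomes, had -0.14 (limma adjusted p = 0.485), and Kazn, the periplakin-binding kazrin, had 0.64 (limma adjusted p = 0.0782). Pkp2, a plakophilin of simple epithelia and heart, and Cdsn, the corneodesmosome protein, were too dim in both groups to be tested.

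Adherens junction genes did not share one direction. Of 15 measured genes 3 rose, 1 fell and 11 missed the threshold, and the median log2 fold change was 0.04. Below 0 lay 6 of them and above 0 lay 9. The list is not confined to epithelial genes, and the samples hold dermis, so its median cannot be set against that of the desmosome genes as a difference between junctions. Among those below 0, Nectin2, Nectin4 and Ctnnd1 had -0.60, -0.38 and -0.21 and did not pass. Cdh1 read 1078 and 1501 in controls and 327 and 575 in mutants, a log2 fold change of -1.54 (limma adjusted p = 0.0233), a call that ended without control replicate 2 (adjusted p = 0.0571). Cdh2, the cadherin of mesenchyme and nerve, rose by 1.09 (limma adjusted p = 0.0124), which ended without mutant replicate 1 (adjusted p = 0.0510). Ctnnd2, a delta-catenin related to the plakophilins, rose by 1.59 (limma adjusted p = 0.0186), which ended without mutant replicate 2 (adjusted p = 0.0599). Nectin3 rose by 0.60 (limma adjusted p = 0.0334) and passed only without control replicate 1 among the 4 fits that left out an array (adjusted p = 0.0218 there and 0.0860 to 0.141 in the others). With dim probe sets tested too, Cdh2 alone of these 4 was called, while Cdh1, Ctnnd2 and Nectin3 were not (adjusted p = 0.0606, 0.0535 and 0.0656). With no variance trend fitted, the calls of Cdh1 and Nectin3 ended (adjusted p = 0.0568 and 0.0762). Cdh3, the cadherin of hair placodes, had 0.32 (limma adjusted p = 0.266). On the scale of the poly-A spikes 12 of the 15 were called higher and 0 lower, beside 90.1% of all tested probe sets called higher.

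**Figure D4:**
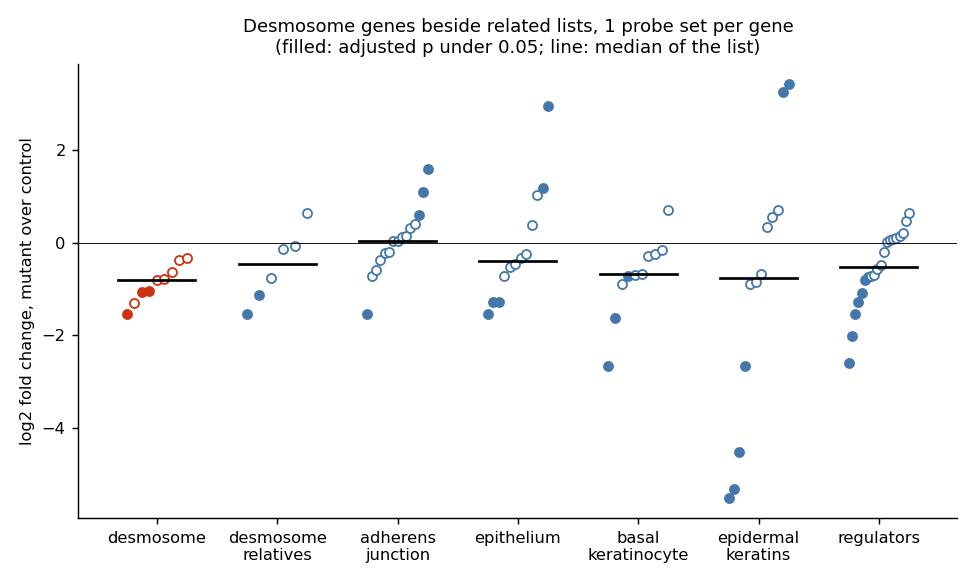
Log2 fold change of mutant over control (vertical axis) for the 9 desmosome genes (red) and 6 related lists (blue, horizontal axis), 1 probe set per gene; filled points passed limma adjusted p 0.05 and lines are medians. The desmosome genes all lie below 0 with a median of -0.81. The adherens junction genes, a list not confined to epithelial genes, centre on 0.04. The epidermal keratins range from -5.50 for Krt1 to 3.42 for Krt75. On the scale of the poly-A spikes, not plotted, the median of all tested genes moves from -0.02 to 1.09. That of the desmosome genes moves to 0.28 there.

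Keratins, the filaments that desmosomes hold, spanned a wider range of changes than the desmosome genes. Of 12 tested epidermal keratins 4 fell, 2 rose and 6 did not pass. The suprabasal keratins Krt1, Krt77 and Krt10 had log2 fold changes of -5.50, -5.32 and -4.52, and the companion layer keratin Krt75 rose by 3.42. Dsc1, of the same layers as Krt10, dropped by much less: within arrays, Dsc1 relative to Krt10 was higher in mutants by 2.97 on the log2 scale, with groups that did not overlap. Dsp relative to Krt14, the basal keratin, was higher in mutants by 0.55, also without overlap. Of 14 tested follicle keratins 14 rose. Krt33a, Krt33b, Krt35 and Krt34, keratins of the hair shaft, led with log2 fold changes of 7.95, 7.08, 6.78 and 6.57, sizes that depend on the offset since their controls were dim.

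Among 20 tested transcription factors that act on epidermal genes or on epithelial identity, 7 fell, 0 rose and 13 missed the threshold, and the median log2 fold change was -0.52. Gata3, Grhl3, Tfap2b and Twist1 fell, with log2 fold changes of -2.60, -2.00, -1.53 and -1.27 (limma adjusted p = 0.00168, 0.0123, 0.0129 and 0.00265). The calls of these 4 held without any 1 array. Grhl3 acts in barrier formation and Gata3 in the epidermis and inner root sheath, while Twist1 is a factor of the dermis. Grhl1, known in mouse to act on desmosomal cadherin genes, had -0.20 (limma adjusted p = 0.624). Of the repressors of epithelial genes, Snai1 read 93.9 and 67.1 in controls and 127 and 129 in mutants, without overlap, a log2 fold change of 0.64 (limma adjusted p = 0.110). It passed when control replicate 1 was left out (adjusted p = 0.0324). Snai2, Zeb1 and Zeb2 had 0.11, 0.22 and 0.06 and did not pass. The KLF family members Klf4 and Klf5 were both tested. Klf4 had 0.15 and did not pass (limma adjusted p = 0.521). Klf5 fell, at -0.74 (limma adjusted p = 0.0420), but its call ended without control replicate 2, mutant replicate 1 or mutant replicate 2. With dim probe sets tested too, 4 regulators were called, all lower. Grhl1, Trp63, Klf4, Klf5, Snai1, Snai2, Zeb1 and Zeb2 were chosen after their values were seen.

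In the other marker lists of whole skin, 2 of 9 dermal fibroblast genes fell (Twist2 and Fbln1), 1 of 7 endothelial genes rose (Tek), 1 of 7 skeletal muscle genes fell (Myh3) and 2 of 4 tested melanocyte genes rose (Dct and Pmel). Across all tested genes 3.78% fell and 4.96% rose by the same rule. None of the 8 cartilage genes passed, led by Col2a1 and Matn1, nor did the 3 tested Schwann cell genes, led by Sox10 and Foxd3. Cartilage and skeletal muscle depended on the mutant array. The mean log2 signal of the 8 cartilage genes was 9.74 in mutant replicate 1 and 5.48 in mutant replicate 2, beside 4.67 and 4.40 in the controls. That of the 7 skeletal muscle genes was 8.82 and 7.55 in the mutants, beside 9.62 and 9.30 in the controls. The calls of Myh3, Dct and Pmel ended with dim probe sets tested too, and that of Myh3 also with no variance trend. The median log2 fold change of the dermal fibroblast genes was -0.36. The part of these cell types in the desmosome values was not tested.

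**Figure D5:**
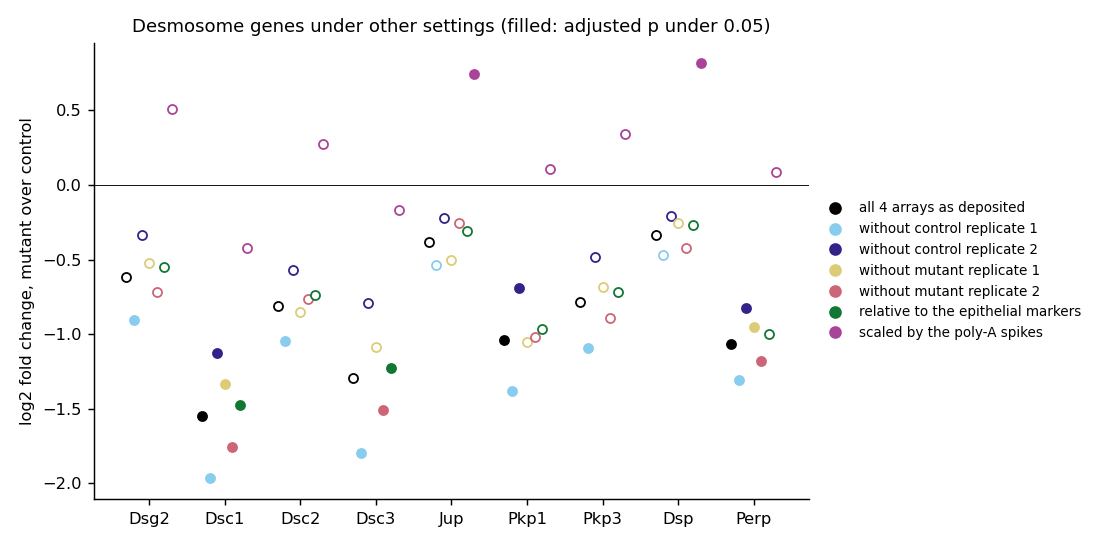
Log2 fold change of mutant over control (vertical axis) of 9 desmosome genes (horizontal axis) with all 4 arrays, with each array left out, relative to 12 epithelial markers, and scaled by the poly-A spikes; filled points passed limma adjusted p 0.05. Passing relative to the epithelial markers cannot be compared with passing in the main fit. Values without control replicate 1 are the lowest of the 4 left-out fits for each gene and lie below 0 as the others do, while on the scale of the poly-A spikes 7 of the 9 genes lie above 0 and Dsc1 and Dsc3 below it.

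None of the 20 member probe sets is among the 170 probe sets of the authors' deposited table of changes that was used here. That table asked for at least a 2-fold change on another processing of the same arrays. Its entries read here were follicle keratins, with ratios of mutant over control from 18 to 3725. Whether it also lists decreases was not examined, so no conclusion is drawn from the absence of the members. On the deposited signals Dsc1, Pkp1, Perp and Dsc3 had control means 3.10, 2.13, 2.12 and 2.62 times their mutant means.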

How the data were processed

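Signal intensity per probe set and array came from the authors' use of GCOS and MAS5 (versions and scaling target not given in the sources used here), per the submitters' processing notes; the deposited values are linear and were not normalized again. The authors' deposited table gives a fold ratio of mutant over control; per the file headers it used GCRMA, Present calls, a Welch test and at least a 2-fold change.

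Probe sets were named from the platform table, with symbols updated from RefSeq (GRCm38.p6, names and promoters only): 34945 match 1 gene, 932 several, and 9160 are unnamed here. Signals became log2(signal + 7.71), the offset being percentile 25 of all values, which shrinks changes of dim genes. Probe sets with a mean signal of at least 31.1 were tested, 22519 in all. The model was fitted with limma 3.58.1 in R 4.3.3 (variance trend, two-sided p-values); adjustment was Benjamini-Hochberg across the 22519, and the threshold 0.05. A gene is represented by its brightest probe set. Array number limits precision, and no detection calls were used. The labels do not say which embryos share a litter or whether anything beyond the embryo differs between samples. The p-values thus cover only the spread between these samples, which limma pools in part across all tested probe sets.

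Members, lists and tests were chosen with earlier results of these data known. The lists hold desmosome relatives, adherens junction genes, epidermal and follicle keratins, regulators, and markers of epithelium, basal keratinocytes, fibroblasts, endothelium, cardiac and skeletal muscle, cartilage, Schwann cells and melanocytes. Up to 4 called genes per list with the largest change are named, or 2 where none passed, besides any desmosome relative or adherens junction gene. Alternatives changed the offset, filter, scaling, variance model, arrays, pairing and probe set per gene.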

Additional observations from a re-analysis of the deposited data

How the results depend on the processing

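Of 22519 probe sets 1583 were called, among them 4 of the desmosome genes, which gave 3 genes, all lower. Leaving out 1 array gave 982 to 2171 probe sets across the array, 2 to 7 desmosome genes, 2 to 11 desmosome probe sets and a median change of the desmosome genes of -1.09 to -0.57. With dim probe sets tested too, 880 of 45037 were called, and limma called 0 desmosome genes and 0 desmosome probe sets, although 9 genes and 16 probe sets had an unadjusted p under 0.05. Without the variance trend limma also called 0 of each, with 7 genes and 14 probe sets at an unadjusted p under 0.05. With array medians made equal 5 desmosome genes and 6 desmosome probe sets were called lower, beside 3.52% of all tested probe sets. Scaling by the poly-A spikes called 20429 probe sets, 20297 of them higher and 132 lower. It called 5 desmosome probe sets, 4 of them higher, and 2 desmosome genes, both higher, with a median of 0.28. The reversed log2 fold changes there were 0.51 for Dsg2, 0.28 for Dsc2, 0.82 for Dsp, 0.74 for Jup, 0.10 for Pkp1, 0.34 for Pkp3 and 0.085 for Perp. Relative to the median epithelial marker, chosen after seeing the data, limma called 0 desmosome genes and 0 desmosome probe sets (2 and 3 at an unadjusted p under 0.05), the median was -0.38, and Dsp and Jup turned to 0.090 and 0.049. Relative to the median basal keratinocyte marker, also chosen after seeing the data, limma called 0 of each (1 and 2 at an unadjusted p under 0.05), the median was -0.16, and Dsg2, Dsp and Jup turned to 0.031, 0.31 and 0.27. The cause of these changes was not tested. Arrays of the same number had deviations that correlated at 0.155, but with only 2 pairs and no shared litter or batch in the labels they share only a number. With that number as a replicate block, 2443 probe sets, 12 desmosome probe sets and 8 desmosome genes were called, the members all lower beside 4.73% of all tested probe sets. Of the alternatives for single member genes, 109 kept direction and call, 17 lost the call, 15 gained it and 12 reversed. For genes that were not called, keeping the call means staying uncalled. Of 17 alternatives for each called gene, Dsc1 kept its direction and call in 12, Pkp1 in 9 and Perp in 11.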
